A study of Homo sapiens with 6 samples.

Results

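The TRIM genes encode proteins built from a tripartite motif, a RING domain followed by B-box zinc fingers and a coiled coil, and most of them act as ubiquitin ligases. The tail behind the motif differs between members and sets what they bind: many antiviral members carry a SPRY domain, some nuclear members a PHD finger and bromodomain, and others NHL repeats, an ARF domain or a membrane anchor. Interferons induce a part of the family, in which some members restrict viruses directly and others ubiquitinate sensors of viral RNA. Their levels were compared here between 3 human cell lines. Members were the rows whose symbol is TRIM followed by digits and at most 1 letter, which gave 71 of 23368 rows. Of these 71 genes, 49 passed the filter, a normalised read count of 10 or more in 2 or more libraries, and were tested, among 15638 genes in all. The other 22 were too low to test.

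Each line had 2 libraries, 6 in all. One pair is labelled MDA-MB-436, a breast adenocarcinoma line grown in L-15 medium with no treatment recorded. Another pair is labelled HT-29, a colon adenocarcinoma line, with 200 U per ml of the cytokine IFN-γ for 24 hours. The last pair is MCF10A, a mammary epithelial line that is not tumorigenic and whose medium held EGF, hydrocortisone, cholera toxin and insulin. No untreated HT-29 library was analysed here. The labels do not say whether paired libraries are separate cultures, and every p-value therefore reflects library-to-library spread alone, which may be technical. Whole reads recovered from the tables came to 16.7 and 56.4 M in the pair labelled MDA-MB-436, 18.4 and 50.2 M in the pair labelled HT-29 and 18.3 and 69.5 M in MCF10A.

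The marker genes went against the labels of 2 of the 3 lines. KRT20, an intestinal keratin, stood at 29899.7 and 30879.7 in the pair labelled MDA-MB-436, 0 and 0.547 in the pair labelled HT-29 and 0 and 1.47 in MCF10A. VIL1, which encodes the brush border protein villin, stood at 2055 and 2198 in the pair labelled MDA-MB-436, 0 and 0 in the pair labelled HT-29 and 0 and 0 in MCF10A. The intestinal genes CDX2, LGALS4 and CDH17 were likewise called higher in the pair labelled MDA-MB-436 than in MCF10A, while VIM, the mesenchymal filament vimentin, stood at 16.5 and 7.39 in the pair labelled MDA-MB-436, 36599 and 35267 in the pair labelled HT-29 and 25901 and 26246 in MCF10A. The pair labelled MDA-MB-436 thus carried the colon markers, and the pair labelled HT-29 carried almost none. The labels may be exchanged between these pairs, but samples were kept as labelled, so each direction given is that of the labels. No comparison between lines could be made without these libraries, since each uses at least 1 of the 2 pairs. The basal marker KRT5 was high in MCF10A alone, at 424101 and 416184. Of 8 leukocyte markers, CD3D was at 0 in every library and PTPRC, the common leukocyte antigen, at 10.3 or less. Their summed level was 113 to 121 in the pair labelled MDA-MB-436, 540.0 to 544 in the pair labelled HT-29 and 482 to 504 in MCF10A, most of it from CD14 and ITGAM. Genes of the interferon signal also differed between the lines. IRF1, a transcription factor that IFN-γ induces, stood at 79637 and 79442 in the pair labelled MDA-MB-436, 2234 and 2194 in the pair labelled HT-29 and 393 and 414 in MCF10A. The part of interferon in any single TRIM level was not tested, since no line had treated and untreated libraries.

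The regulatory letters through which interferon signals are known to act were looked for in the promoters, since interferons are known to induce a part of the family. RefSeq promoters of build GRCh38.p14, running from 250 bases before to 50 after the gene start, were at hand for 53 of the 71 genes. The interferon-stimulated response element, ISRE, was searched as GAAA, NN and GAAA in a row and the gamma-activated sequence, GAS, as TTCNNNGAA, each on both strands. ISRE letters occurred in 10 of these 53 promoters, 18.9%, against 3.65% of 27305 promoters of all genes. GAS letters occurred in 8 of 53, 15.1%, against 7.88% of all. Each window below is 30 bases long, read 5′ to 3′ on the strand that shows the motif, with the ISRE letters in capitals. The first 5 belong to genes that were higher in the pair labelled MDA-MB-436 than in MCF10A, and the last 5 to genes that were not called higher or were not tested.
TRIM21: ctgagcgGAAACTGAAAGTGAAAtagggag
TRIM26: gggcagcGAAATGGAAACTGAAAtcaggcg
TRIM14: gctcccaaggGAAACCGAAAcctcggccgt
TRIM5: ctcagggcagGAAAGTGAAAgataaactat
TRIM44: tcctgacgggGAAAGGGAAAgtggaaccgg
TRIM69: ttgcttaagaGAAAGAGAAAccctcattag
TRIM2: aataaatagaGAAAAGGAAAtaagccgaag
TRIM16: acagaggtaaGAAATAGAAAtaaagggtcc
TRIM34: cctgagaaatGAAAGTGAAAtttttggggc
TRIM64C: ttgccccgatGAAAAGGAAAaaaaggccag
TRIM21 and TRIM26 held 2 overlapping copies, so that GAAA recurs in step along the window; the other 8 held 1. The windows lie at chr11:4393663-4393692 on the minus strand, chr6:30213578-30213607 on the plus strand, chr9:98119229-98119258 on the plus strand, chr11:5685082-5685111 on the plus strand and chr11:35662730-35662759 on the plus strand for the first 5 genes. For the last 5 they lie at chr15:44736456-44736485 on the minus strand, chr4:153151936-153151965 on the plus strand, chr17:15683012-15683041 on the minus strand, chr11:5624901-5624930 on the minus strand and chr11:49059167-49059196 on the plus strand. A match describes the letters and does not show that a factor binds there.

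Of the 10 ISRE genes 8 were tested. In the pair labelled MDA-MB-436 against MCF10A, 5 of the 8 were higher and 1, TRIM16, was lower, with a median log2 fold change of 1.28. Of 28 tested members whose promoter lacked the letters, 11 were higher and 4 lower, with a median of 0.55, and over all tested genes 25.6% were higher and 23.7% lower. The 11 include TRIM25, TRIM38 and TRIM56, which are known to be induced by interferon. No promoter was at hand for TRIM22, another such gene. Also among the 11 are TRIM31, TRIM10, TRIM40 and TRIM54, which passed the filter only through the pair labelled MDA-MB-436. The filter thus set their direction, and they enter the median. Of 5 tested members with GAS letters, 2 were higher and 2 lower in the pair labelled MDA-MB-436 than in MCF10A, with a median of 0.29. The 2 higher include TRIM40, whose direction was set by the filter. In the pair labelled HT-29 against MCF10A, 0 of the 8 ISRE genes were higher and 1 was lower, with a median of -0.19. Of the 28 members without the letters 9 were higher and 5 lower, with a median of 0.06. The 9 include TRIM46, which passed the filter only through the pair labelled HT-29. Of the 5 GAS genes 0 were higher and 2 lower, with a median of -0.46. Over all tested genes 28.4% were higher and 18.1% lower in this comparison. These are counts of few genes, with no test of the letters. The promoter of TRIM31, the member with the largest difference between the pair labelled MDA-MB-436 and MCF10A, held neither motif. It is printed whole for contrast with that of TRIM21, in which the ISRE letters follow the gene start. The TRIM31 window is chr6:30113041-30113340 and the TRIM21 window chr11:4393653-4393952, both on the minus strand, and capitals again mark ISRE letters.
TRIM31: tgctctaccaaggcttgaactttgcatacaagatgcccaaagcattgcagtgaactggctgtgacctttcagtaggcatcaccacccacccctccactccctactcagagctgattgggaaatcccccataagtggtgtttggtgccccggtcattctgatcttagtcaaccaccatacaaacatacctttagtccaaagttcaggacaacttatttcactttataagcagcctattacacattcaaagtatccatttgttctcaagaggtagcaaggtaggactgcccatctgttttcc
TRIM21: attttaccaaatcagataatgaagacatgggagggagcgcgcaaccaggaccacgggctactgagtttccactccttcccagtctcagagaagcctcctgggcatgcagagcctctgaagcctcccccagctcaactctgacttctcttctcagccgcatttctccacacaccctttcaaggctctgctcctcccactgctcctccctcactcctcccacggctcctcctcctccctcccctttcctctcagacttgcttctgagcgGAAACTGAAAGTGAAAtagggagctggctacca

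Per length of transcript, the family's make-up differed between the lines. For this ordering alone the deposited RPKM, a read count scaled by transcript length and library size, was used, after its rows were put back into register with the symbols. Summed over members, RPKM was 1691 and 1696 in the pair labelled MDA-MB-436, 694 and 688 in the pair labelled HT-29 and 923 and 922 in MCF10A. In the pair labelled MDA-MB-436 TRIM31 alone made up 30.1 and 30.5% of that sum, at 509 and 518 RPKM, followed by TRIM28 at 147 and 149, TRIM25 at 116 and 115 and TRIM14 at 104 and 103. In the pair labelled HT-29 TRIM28, the corepressor KAP1 that KRAB zinc finger proteins recruit to chromatin, came first at 194 and 184 RPKM, far ahead of TRIM14 at 41.3 and 40.0. In MCF10A TRIM29 at 247 and 244 RPKM and TRIM28 at 242 and 240.4 led the order, well ahead of TRIM14 at 40.3 and 39.7. The libraries of a line gave the same top member each time, with TRIM28 the only one among the first 2 in every library.

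**Figure D1:**
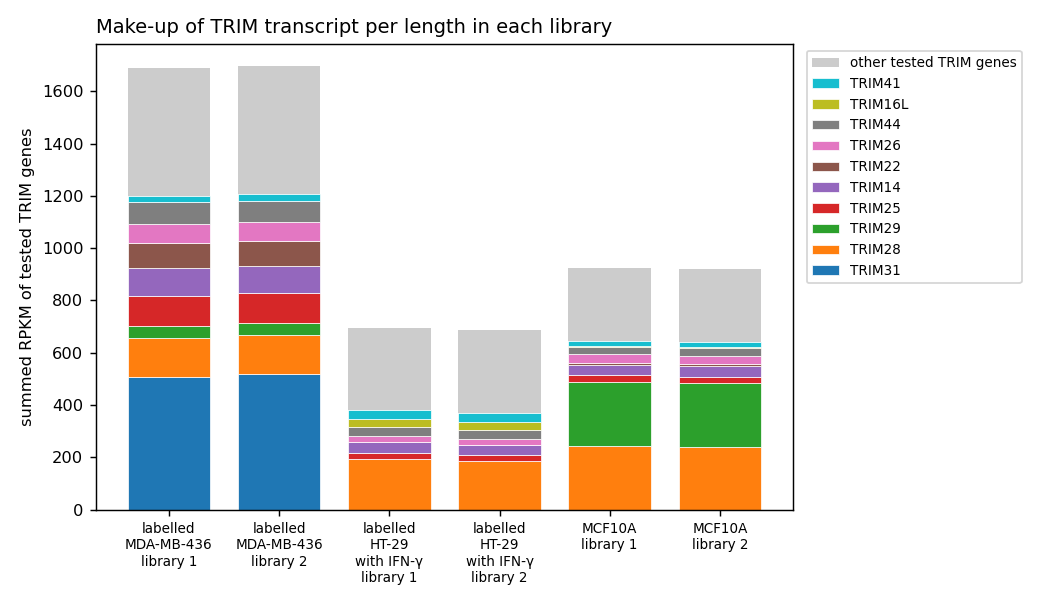
RPKM summed over the 49 tested TRIM genes in each of the 6 libraries (vertical axis), split by gene; colours mark 10 genes and grey the rest. TRIM31 fills the lowest block of the pair labelled MDA-MB-436, at 509 and 518 RPKM, and TRIM29 is a large block in MCF10A alone, at 247 and 244 RPKM.

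Values from here on are normalised read counts, the authors' counts after scaling, as were those of the marker genes and IRF1 above. They can be compared between libraries for 1 gene and not between genes. A gene is called higher or lower where limma's Benjamini-Hochberg adjusted p over all 15638 genes was below 0.05 and the log2 fold change at least 1 in size. Fold changes are on the scale of log2(normalised count + 1), which understates the change of low genes, and folds in words come from reads pooled within a line, with 95% counting intervals, which cover counting error only.

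The pair labelled MDA-MB-436 had higher levels of 19 tested TRIM genes than MCF10A and lower levels of 7, while 23 were not called. In these bulk samples, fewer cells that express a gene and less RNA per cell cannot be told apart. Over all tested genes 25.6% were higher and 23.7% lower, 49.2% called in all; among tested TRIM genes it was 38.8 and 14.3%. The median log2 fold change was 0.46 for TRIM genes and 0 for all genes. As 9 of the 49 stayed under 10 in some line and passed the filter only through another, these shares describe the genes that passed and are no test of the family. The mean level was highest in the pair labelled MDA-MB-436 for 26 of the 49 genes, in the pair labelled HT-29 for 12 and in MCF10A for 11, against 34.7% of all tested genes for the pair labelled MDA-MB-436 and 36.3% for the pair labelled HT-29.

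**Figure D2:**
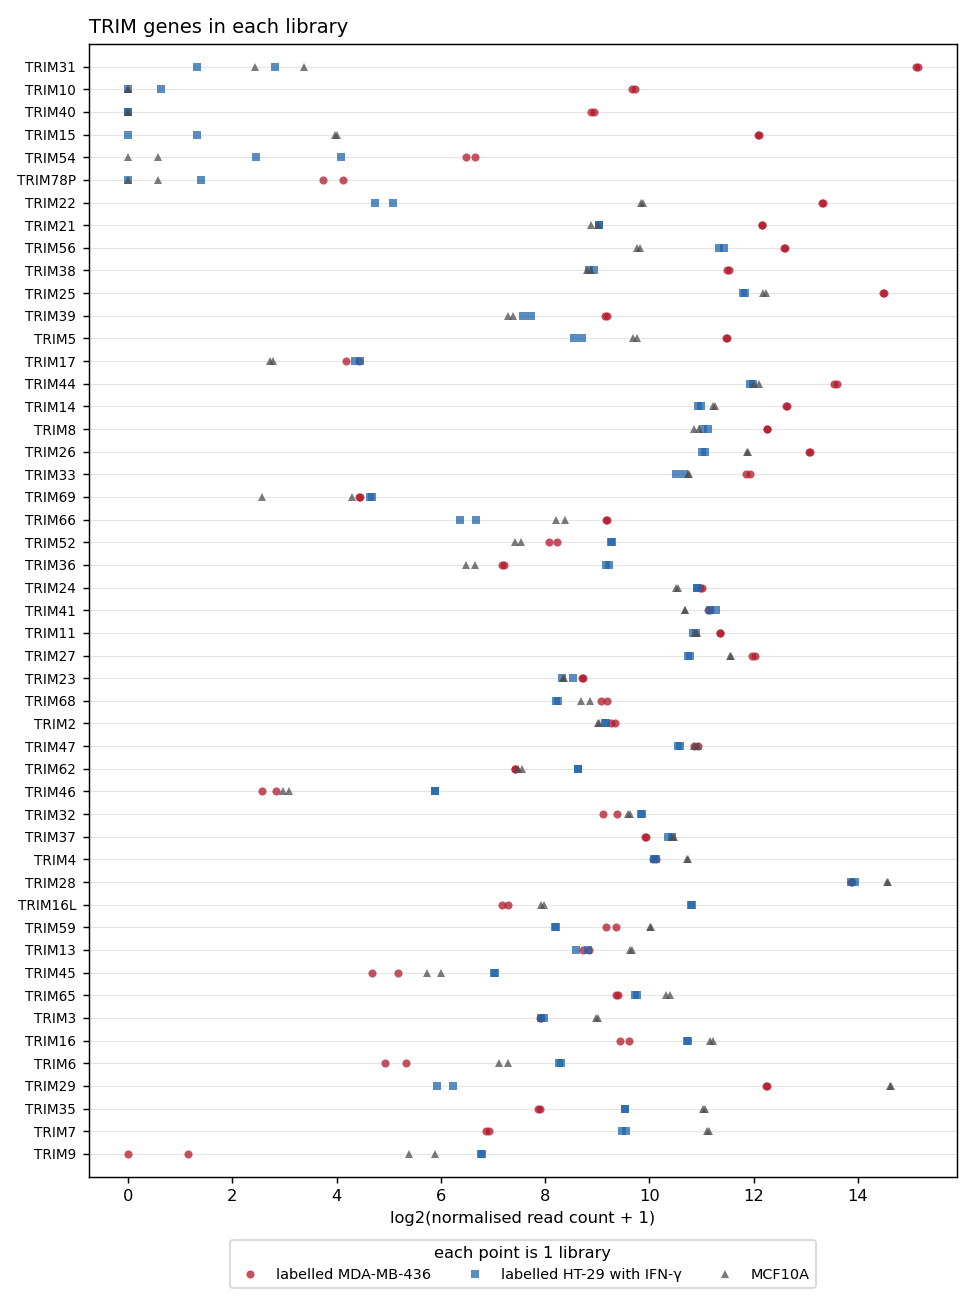
Level of each of the 49 tested TRIM genes in every library, as log2(normalised read count + 1) on the horizontal axis; each point is 1 library and rows run from the largest to the smallest log2 fold change of the pair labelled MDA-MB-436 against MCF10A. TRIM31 tops the order at 12.22 and TRIM9 ends it at -5.05; the points of 1 line nearly coincide for most genes.

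The largest differences lay in a cluster on chromosome 6, inside and beside the major histocompatibility complex, whose members TRIM10, TRIM15, TRIM26, TRIM27, TRIM31, TRIM38, TRIM39 and TRIM40 were all tested. In the pair labelled MDA-MB-436 7 of these 8 were higher than in MCF10A, with a median log2 fold change of 5.39. Over all tested genes 25.6% were higher. TRIM31, TRIM10 and TRIM40 passed the filter only through the pair labelled MDA-MB-436, which set their direction, and they enter the median. TRIM31, a ligase that acts on the mitochondrial adaptor MAVS and is known from gut epithelium, stood at 35357 and 36328 in the pair labelled MDA-MB-436, 1.5001 and 6.02 in the pair labelled HT-29 and 9.36 and 4.42 in MCF10A. The first pair was far above the other libraries, which all had fewer than 10 counts, 6630.0-fold higher than in MCF10A (interval 3951 to 12128; log2 fold change 12.22, SE 0.496, adjusted p = 2.74e-07). TRIM15, a component of focal adhesions, stood at 4305 and 4407 in the pair labelled MDA-MB-436, 1.5001 and 0 in the pair labelled HT-29 and 14.98 and 14.7 in MCF10A. It was 297-fold higher than in MCF10A (log2 fold change 8.10, SE 0.389, adjusted p = 3.03e-07). TRIM10, known from erythroid maturation, stood at 813 and 846 in the pair labelled MDA-MB-436, 0 and 0.547 in the pair labelled HT-29 and 0 and 0 in MCF10A. With 0 reads in MCF10A it was at least 719-fold higher, taking a floor of 3 reads over the MCF10A pair (adjusted p = 4.46e-08). TRIM40, described as a gastrointestinal member that restrains NF-κB, stood at 488 and 469 in the pair labelled MDA-MB-436, 0 and 0 in the pair labelled HT-29 and 0 and 0 in MCF10A. It too had no read in MCF10A and was at least 405-fold higher against the same floor (adjusted p = 4.74e-08).

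The remaining members of the cluster were present in every line and differed less. TRIM39, which stabilises the apoptosis modulator MOAP1, stood at 583 and 565 in the pair labelled MDA-MB-436, 191 and 211 in the pair labelled HT-29 and 155 and 166 in MCF10A, 3.47-fold higher in the first pair than in MCF10A (log2 fold change 1.83, adjusted p = 3.87e-07). In the annotation 29.5% of its exon bases are shared with the read-through gene TRIM39-RPP21, so its reads are uncertain. TRIM27 stood at 3988 and 4139 in the pair labelled MDA-MB-436, 1703 and 1745 in the pair labelled HT-29 and 3022 and 2988 in MCF10A and stayed under the fold threshold (log2 fold change 0.43, adjusted p = 4.87e-06). In RefSeq's order the genes TRIM31, TRIM40, TRIM10, TRIM15 and TRIM26 follow each other, flanked by RNF39 and TRIM39. RNF39, itself a RING ligase gene, stood at 1280.5 and 1263 in the pair labelled MDA-MB-436, 4.5003 and 3.28 in the pair labelled HT-29 and 142 and 163 in MCF10A. Its level was thus highest in the pair labelled MDA-MB-436 as well.

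The members known to be induced by interferon were set apart in the same libraries. Of 10 such genes on the list 9 were tested. Of these, 8 were higher in the pair labelled MDA-MB-436 than in MCF10A and 1 was not called. Their median log2 fold change was 2.28, and over all tested genes 25.6% were higher. The list was drawn up with earlier results of these data known, so its count is a description. TRIM22, an interferon-induced restrictor of retroviral transcription, stood at 10289 and 10169 in the pair labelled MDA-MB-436, 33.0 and 25.7 in the pair labelled HT-29 and 910.1 and 934 in MCF10A. It was 10.98-fold higher than in MCF10A (interval 10.5 to 11.5; log2 fold change 3.47, SE 0.104, adjusted p = 1.98e-08). TRIM21, the cytosolic receptor for antibody-coated viruses whose promoter is printed above, stood at 4587 and 4576 in the pair labelled MDA-MB-436, 521 and 522 in the pair labelled HT-29 and 515 and 471 in MCF10A. Only the first pair stood apart, 9.54-fold above MCF10A (log2 fold change 3.22, SE 0.0518, adjusted p = 8.52e-10). TRIM25, the ligase that ubiquitinates the RNA sensor RIG-I, stood at 22884 and 22988 in the pair labelled MDA-MB-436, 3644 and 3538 in the pair labelled HT-29 and 4801 and 4634 in MCF10A. It was 4.92-fold higher in the first pair than in MCF10A (log2 fold change 2.28, SE 0.0282, adjusted p = 2.64e-10). TRIM56, an antiviral ligase, differed between all 3 lines, at 6124 and 6173 in the pair labelled MDA-MB-436, 2739 and 2589 in the pair labelled HT-29 and 869 and 896 in MCF10A. The first pair was 6.92-fold above MCF10A (log2 fold change 2.80, SE 0.0379, adjusted p = 3.88e-10).

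TRIM38, a regulator of Toll-like receptor signals in the chromosome 6 cluster, stood at 2872 and 2961 in the pair labelled MDA-MB-436, 458 and 489 in the pair labelled HT-29 and 470.0 and 443 in MCF10A; it was 6.55-fold higher in the first pair than in MCF10A (log2 fold change 2.67, adjusted p = 2.99e-09). TRIM5, which recognises retroviral capsids, stood at 2886 and 2831 in the pair labelled MDA-MB-436, 375 and 416 in the pair labelled HT-29 and 822 and 864 in MCF10A; it was 3.32-fold higher (log2 fold change 1.76, adjusted p = 3.93e-08). Smaller differences were measured for the adaptor TRIM14 and for TRIM26. TRIM14, which works beside MAVS and lacks a RING, stood at 6337 and 6301 in the pair labelled MDA-MB-436, 2021 and 1941 in the pair labelled HT-29 and 2442 and 2397 in MCF10A (log2 fold change 1.38, adjusted p = 4.69e-09). TRIM26, whose promoter holds the paired ISRE letters, stood at 8489.9 and 8697 in the pair labelled MDA-MB-436, 2138 and 2064 in the pair labelled HT-29 and 3811 and 3757 in MCF10A (log2 fold change 1.18, adjusted p = 8.30e-09). TRIM69 was near the filter, at 20.6 and 20.9 in the pair labelled MDA-MB-436, 24.0 and 24.6 in the pair labelled HT-29 and 18.7 and 4.91 in MCF10A, and was not called with limma (log2 fold change 1.011, adjusted p = 0.105). Its MCF10A libraries were far apart, and without the 25M MCF10A library it was called, at a log2 fold change of 1.88, as it was with edgeR, at 1.35.

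**Figure D3:**
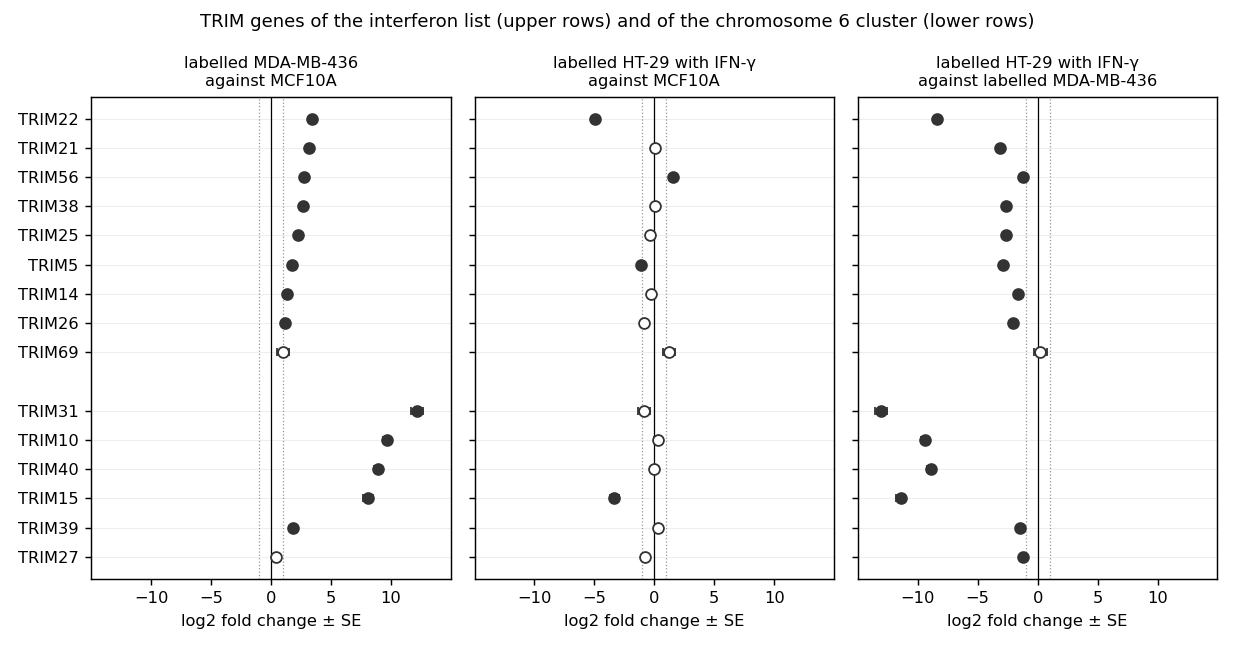
Log2 fold change with SE (horizontal axis) of the interferon list (upper rows, with TRIM26 and TRIM38 that also lie in the cluster) and the rest of the chromosome 6 cluster (lower rows) in the 3 comparisons; filled points were called, open points were not, and dotted lines mark a log2 fold change of 1 in size. In the first panel 8 of 9 interferon-list genes are filled and to the right; in the second TRIM56 alone of that list is filled to the right.

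TRIM5, TRIM6, TRIM34 and TRIM22 adjoin each other on chromosome 11, yet they did not move as a block. TRIM6, which makes free ubiquitin chains for the kinase IKKε, stood at 39.1 and 29.6 in the pair labelled MDA-MB-436, 314 and 306 in the pair labelled HT-29 and 155 and 138 in MCF10A, with the lowest values in the same pair that held the most TRIM22 and TRIM5. It was 4.46-fold lower than in MCF10A (log2 fold change -2.07, SE 0.163, adjusted p = 6.50e-06). TRIM34 had 3 reads in the pair labelled MDA-MB-436, 1 in the pair labelled HT-29 and 0 in MCF10A. In the annotation 83.0% of its exon bases and 29.3% of those of TRIM6 are shared with the read-through gene TRIM6-TRIM34, which was at 0 throughout. Reads that fall on shared exons may not have been assigned, so the level of TRIM34 is uncertain.

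Lower levels in the pair labelled MDA-MB-436 were found for TRIM7, TRIM35, TRIM29, TRIM6, TRIM16, TRIM3 and TRIM9. TRIM29, a RING-less member of basal epithelia that binds p53, stood at 4850.2 and 4866 in the pair labelled MDA-MB-436, 60.0036 and 73.9 in the pair labelled HT-29 and 25435 and 25028 in MCF10A. MCF10A was highest and the pair labelled HT-29 lowest, with the pair labelled MDA-MB-436 between them. TRIM29 was 5.16-fold lower in the pair labelled MDA-MB-436 than in MCF10A (interval 5.06 to 5.27; log2 fold change -2.38, SE 0.0834, adjusted p = 4.81e-08). TRIM7, which binds the glycogen primer glycogenin, stood at 115 and 121 in the pair labelled MDA-MB-436, 752 and 710.2 in the pair labelled HT-29 and 2202 and 2261 in MCF10A, 18.8-fold lower than in MCF10A (log2 fold change -4.23, SE 0.0595, adjusted p = 4.79e-10). TRIM35 stood at 237 and 232 in the pair labelled MDA-MB-436, 739.5 and 735 in the pair labelled HT-29 and 2080.4 and 2141 in MCF10A, 9.14-fold lower (log2 fold change -3.17, SE 0.0488, adjusted p = 7.12e-10). For TRIM7 and TRIM35 the 3 pairs were well apart, with MCF10A at the top and the pair labelled MDA-MB-436 at the bottom. TRIM16 (log2 fold change -1.67, adjusted p = 5.67e-08) and TRIM3 (log2 fold change -1.08, adjusted p = 2.58e-06) were lower by less, and TRIM3, a brain-enriched NHL protein, lost its call in limma's test for folds above 2 (adjusted p = 0.323). TRIM9, a neuronal member that binds the netrin receptor DCC, stood at 0 and 1.23 in the pair labelled MDA-MB-436, 108 and 109 in the pair labelled HT-29 and 58.0 and 40.7 in MCF10A, so it was close to undetected in the first pair (log2 fold change -5.05, adjusted p = 7.90e-06).

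The second comparison set the pair labelled HT-29 against MCF10A. Here 11 tested TRIM genes were higher, 9 were lower and 29 were not called, shares of 22.4 and 18.4%, against 28.4% higher and 18.1% lower over all tested genes, 46.5% called in all. The median log2 fold change was -0.03 for TRIM genes and 0.13 for all genes. With TMM scaling the split was 9 higher and 10 lower, so it gave the family no direction. With scaling by library size alone it was 12 and 7, while over all genes the split moved from 4442 higher and 2823 lower to 5376 and 1994.

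IFN-γ is recorded for these libraries, though their marker genes went against the label HT-29. IRF1 was lower than in the pair labelled MDA-MB-436 (log2 fold change -5.17). It was higher than in MCF10A (log2 fold change 2.45, adjusted p = 6.52e-10). Of the 9 tested list genes only TRIM56 was higher, 2.95-fold (log2 fold change 1.59, SE 0.0379, adjusted p = 9.08e-09), while TRIM22 and TRIM5 were lower and 6 were not called; the median log2 fold change was -0.29. Over all tested genes 46.5% were called in either direction. TRIM22 was 33.6-fold lower (interval 26.4 to 43.3; log2 fold change -4.94, SE 0.104, adjusted p = 5.26e-09). The libraries of the 2 lines did not overlap. TRIM5 was 2.11-fold lower (log2 fold change -1.09, adjusted p = 7.82e-07), and its call ended with scaling by library size alone (-0.78) and when tested against a fold of 2. TRIM21 (log2 fold change 0.08, adjusted p = 0.172) and TRIM38 (log2 fold change 0.05, adjusted p = 0.416) were not called, and their small differences changed sign with TMM scaling. TRIM14 (log2 fold change -0.29, adjusted p = 5.38e-05), TRIM25 (log2 fold change -0.39, adjusted p = 3.98e-06) and TRIM26 (log2 fold change -0.85, adjusted p = 6.82e-08) stayed under the fold threshold. TRIM69 was not called (log2 fold change 1.23, adjusted p = 0.0564), but was without the 25M MCF10A library (2.10), with library size scaling and with edgeR. In the chromosome 6 cluster 1 of 8 was called, TRIM15, lower with 1 read in this pair against 38 in MCF10A (log2 fold change -3.33, adjusted p = 8.17e-05). TRIM31 had few reads in either line and was not called (log2 fold change -0.84, adjusted p = 0.152); without the deeper library labelled HT-29 it was, at -1.58.

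TRIM29 gave the largest difference, with 60.0036 and 73.9 counts in the pair labelled HT-29 against 25435 and 25028 in MCF10A. It was 358-fold lower (interval 309 to 418; log2 fold change -8.54, SE 0.0834, adjusted p = 1.87e-10). TRIM59, a membrane-anchored member, stood at 293 and 293 against 1032 and 1042 (log2 fold change -1.82, SE 0.0734, adjusted p = 1.37e-07). In the annotation its exons overlap SMC4 on the opposite strand and the protein-coding AC079594.2 on the same strand, so its reads are less certain. TRIM66, a testis-enriched PHD-bromodomain protein, stood at 100.5 and 81.0 against 333 and 296 (log2 fold change -1.79, SE 0.122, adjusted p = 3.00e-06). TRIM7 (log2 fold change -1.61, adjusted p = 8.55e-08) and TRIM35 (log2 fold change -1.52, adjusted p = 4.05e-08) were lower here too, as they were in the pair labelled MDA-MB-436, and both comparisons share the MCF10A libraries.

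Of the microtubule-bound members with a COS box and fibronectin domain, TRIM9, TRIM36 and TRIM46 were tested. The fourth, TRIM67, did not pass the filter. All 3 were higher in the pair labelled HT-29 than in MCF10A, with a median log2 fold change of 2.64. Over all tested genes 28.4% were higher. TRIM46 passed the filter only through the pair labelled HT-29, which set its direction. MID1 and MID2 are of the same class but carry other names and were not members. In this comparison MID1 was lower (log2 fold change -1.48, adjusted p = 1.87e-06) and MID2 was not called (log2 fold change -0.20). TRIM36 stood at 575 and 599 in this pair against 88.0 and 99.2 in MCF10A (log2 fold change 2.64, SE 0.102, adjusted p = 1.10e-07). TRIM46, which bundles microtubules in axons, stood at 58.5 and 58.5 against 7.49 and 6.87 (log2 fold change 2.86, SE 0.277, adjusted p = 2.53e-05). TRIM9 stood at 108 and 109 against 58.0 and 40.7 (log2 fold change 1.14, SE 0.411, adjusted p = 0.0314). The call of TRIM9 ended in several settings, among them without the 25M MCF10A library (log2 fold change 1.39), without the deeper one (0.89) and without either library labelled HT-29 (1.15 and 1.14).

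TRIM16L, annotated by RefSeq as a transcribed pseudogene and a close copy of TRIM16, stood at 144 and 155 in the pair labelled MDA-MB-436, 1796 and 1775 in the pair labelled HT-29 and 251 and 241 in MCF10A, 7.32-fold higher than in MCF10A (log2 fold change 2.85, SE 0.0700, adjusted p = 1.04e-08). TRIM16 itself, known from keratinocyte differentiation, stood at 689.6 and 779 in the pair labelled MDA-MB-436, 1676 and 1715 in the pair labelled HT-29 and 2285 and 2377 in MCF10A and was not called (log2 fold change -0.46, adjusted p = 0.000164). As the copies are alike, reads may have been split or dropped between them, and both levels are uncertain. TRIM52 stood at 617 and 618 against 185 and 169.9 (log2 fold change 1.79, SE 0.0893, adjusted p = 4.54e-07), with 28.5% of its exon bases overlapping an antisense transcript. TRIM45, a repressor of MAPK signals, stood at 129 and 129.7 against 52.4 and 62.8 (log2 fold change 1.16, SE 0.216, adjusted p = 0.00128), a call that ended when tested against a fold of 2. TRIM62, a regulator of mammary acinar polarity, and TRIM6 were higher by a similar amount (log2 fold changes 1.12 and 1.08). TRIM17 was called at fewer than 25 counts, at 19.5 and 20.8 against 5.62 and 5.89. TRIM54, a muscle ligase, was called at 4.5003 and 15.9 against 0 and 0.491.

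The third comparison set the pair labelled HT-29 directly against the pair labelled MDA-MB-436. In the pair labelled HT-29 11 tested TRIM genes were higher, 22 were lower and 16 were not called. The shares were 22.4 and 44.9%, against 29.9% higher and 23.5% lower over all tested genes, 53.4% called in all. Over all genes library size scaling moved the split from 4675 higher and 3675 lower to 5617 and 2822, and for TRIM genes it gave 11 and 17. The pair labelled MDA-MB-436 also enters the first comparison and that labelled HT-29 the second, so the counts are not independent of them.

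All 8 genes of the chromosome 6 cluster were lower in the pair labelled HT-29 than in the pair labelled MDA-MB-436. Their median log2 fold change was -5.76, and over all tested genes 23.5% were lower. The direction of TRIM31, TRIM10 and TRIM40 was again set by the filter, passed only through the pair labelled MDA-MB-436. TRIM31 differed most (log2 fold change -13.06, SE 0.496, adjusted p = 1.83e-07), followed by TRIM15 (log2 fold change -11.43, SE 0.389, adjusted p = 3.95e-08). TRIM40, with 0 reads in the pair labelled HT-29, was at least 393-fold lower by the floor of 3 reads over the pair. TRIM10 had 1 read in the pair labelled HT-29 against 1769 in the pair labelled MDA-MB-436 (log2 fold change -9.38, adjusted p = 5.23e-08). TRIM27, which the first comparison had left uncalled, was lower as well (log2 fold change -1.24, adjusted p = 9.94e-09). Of the interferon list 8 of 9 were lower and TRIM69 was not called (log2 fold change 0.22, adjusted p = 0.705), with a median of -2.62. TRIM22 was 369-fold lower (interval 291 to 474; log2 fold change -8.41, SE 0.104, adjusted p = 2.79e-10), the widest gap of the list. Among the others log2 fold changes ran from -3.13 for TRIM21 to -1.21 for TRIM56, whose call ended with library size scaling (-0.88). TRIM29 was 69.3-fold lower (log2 fold change -6.17, SE 0.0834, adjusted p = 4.06e-10). Higher in the pair labelled HT-29 were TRIM9 (log2 fold change 6.19, adjusted p = 2.08e-06), TRIM16L (log2 fold change 3.57, adjusted p = 2.17e-09), TRIM46 (log2 fold change 3.19, adjusted p = 1.13e-05), TRIM6 (log2 fold change 3.15, adjusted p = 4.63e-07) and TRIM7 (log2 fold change 2.62, adjusted p = 4.47e-09). The direction of TRIM46 was again set by the filter, passed only through the pair labelled HT-29. TRIM36, TRIM45, TRIM35, TRIM16, TRIM62 and TRIM52 were also higher, with log2 fold changes of 2.01, 2.10, 1.65, 1.21, 1.21 and 1.12.

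**Figure D4:**
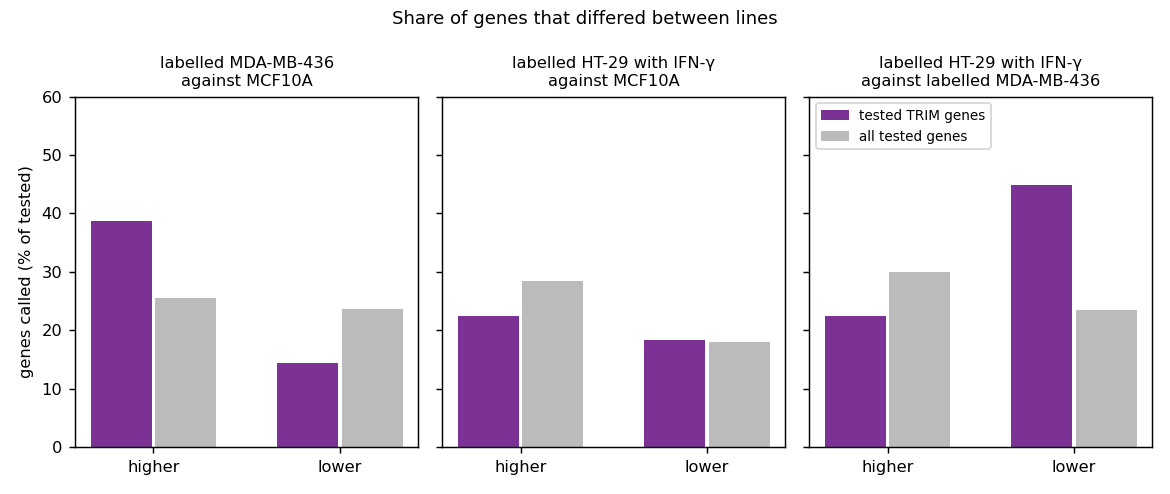
Share of genes called higher and lower in each of the 3 comparisons (vertical axis, percent of tested genes), for the 49 tested TRIM genes and for all 15638. TRIM genes reach 38.8% higher in the first panel and 44.9% lower in the third, and in the second both bars lie closer to those of all genes.

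Of the 4 chromatin-bound members with a PHD finger and bromodomain, 1 was higher in the pair labelled MDA-MB-436 than in MCF10A. In the pair labelled HT-29 1 was lower than in MCF10A. Over all tested genes 25.6% were higher in the first of these comparisons and 18.1% lower in the second. TRIM28 stood at 14863 and 15195 in the pair labelled MDA-MB-436, 15781 and 14897 in the pair labelled HT-29 and 24330.3 and 24137 in MCF10A; its log2 fold changes against MCF10A were -0.69 and -0.66 and stayed under the fold threshold, and the direct difference between those pairs was 0.03 (adjusted p = 0.393). TRIM24, a coactivator of nuclear receptors and ligase of p53, stood at 2050.4 and 2011 in the pair labelled MDA-MB-436, 1925 and 1932 in the pair labelled HT-29 and 1449 and 1487 in MCF10A and was called nowhere. TRIM33, which acts on SMAD4 in the TGF-β pathway, stood at 3899 and 3672 in the pair labelled MDA-MB-436, 1459.6 and 1610.3 in the pair labelled HT-29 and 1734 and 1711 in MCF10A and was higher in the first pair than in MCF10A (log2 fold change 1.13, SE 0.0530, adjusted p = 2.57e-07). TRIM66 stood at 583 and 573 in the pair labelled MDA-MB-436, 100.5 and 81.0 in the pair labelled HT-29 and 333 and 296 in MCF10A, with its low level in the pair labelled HT-29 alone.

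In the NHL group TRIM3 was lower than in MCF10A in both other pairs, at 239 and 240.2 in the pair labelled MDA-MB-436, 252 and 242 in the pair labelled HT-29 and 515 and 502 in MCF10A. TRIM2, a ligase of neurofilament, stood at 651 and 612 in the pair labelled MDA-MB-436, 569 and 575 in the pair labelled HT-29 and 515 and 519 in MCF10A, and TRIM32, the ligase mutated in a limb-girdle muscular dystrophy, at 554 and 663 in the pair labelled MDA-MB-436, 927 and 918 in the pair labelled HT-29 and 769.6 and 792 in MCF10A; neither was called. TRIM37, a centrosomal regulator, at 963 and 973 in the pair labelled MDA-MB-436, 1386 and 1309 in the pair labelled HT-29 and 1378 and 1419 in MCF10A, and TRIM47, at 1857 and 1948 in the pair labelled MDA-MB-436, 1505 and 1529 in the pair labelled HT-29 and 1938 and 1848 in MCF10A, were called in no comparison either. The same held for TRIM4, TRIM11, TRIM13, TRIM23, TRIM41, TRIM65 and TRIM68, whose log2 fold changes against MCF10A ran from -0.98 to 0.54. TRIM8, which binds the feedback inhibitor SOCS1, was higher in the pair labelled MDA-MB-436, at 4895 and 4864 in the pair labelled MDA-MB-436, 2085 and 2238 in the pair labelled HT-29 and 1861 and 1965 in MCF10A (log2 fold change 1.35, adjusted p = 3.04e-08). TRIM44, a RING-less member with a ubiquitin-binding zinc finger, stood at 12385 and 11926 in the pair labelled MDA-MB-436, 3885 and 4036 in the pair labelled HT-29 and 4089.7 and 4373 in MCF10A (log2 fold change 1.52, adjusted p = 9.45e-09), with ISRE letters in its promoter though it is not on the interferon list. Of the 6 tested RING-less members 2 were higher and 2 lower in the pair labelled MDA-MB-436 than in MCF10A. Over all tested genes 25.6% were higher and 23.7% lower.

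Of the 22 members that were not tested, 13 had 0 reads in all 6 libraries and 9 had at least 1 read; the highest value among them was 10.3, for TRIM72, a muscle membrane-repair protein, in a library labelled MDA-MB-436. The 13 are TRIM48, TRIM53P, TRIM64, TRIM64B, TRIM64C, TRIM77P, TRIM42, TRIM50, TRIM58, TRIM60, TRIM61, TRIM73 and TRIM74. TRIM43, TRIM43B and TRIM49 had 1 read each, in a library labelled HT-29. Several of these are near-identical copies, whose reads may have been left unassigned. Of the muscle ligases TRIM54, TRIM55 and TRIM63, TRIM54 alone passed the filter, at 88.5 and 99.2 in the pair labelled MDA-MB-436, 4.5003 and 15.9 in the pair labelled HT-29 and 0 and 0.491 in MCF10A. TRIM71, a stem cell member regulated by let-7, had 2 reads in the pair labelled HT-29 and none elsewhere. TRIM78P, for which no annotation was matched, was called higher in the pair labelled MDA-MB-436 at 16.5 and 12.3 in the pair labelled MDA-MB-436, 0 and 1.64 in the pair labelled HT-29 and 0 and 0.491 in MCF10A. Both TRIM54 and TRIM78P passed the filter only through the pair labelled MDA-MB-436, so their higher level there was set by the filter.

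Between the deeper and the 25M library of each line, 0 of 49 TRIM genes passed an adjusted p below 0.05 with limma, edgeR or DESeq2, while over all genes limma called 0, edgeR 2 and DESeq2 0, a share of 0% with limma. At an unadjusted p below 0.05 there were 0 TRIM genes with limma, 3 with edgeR and 0 with DESeq2, against 284, 619 and 46 of all 15638 genes. The median gap between the libraries of a line, on the log2 scale, was 0.0440 in the pair labelled MDA-MB-436, 0.0559 in the pair labelled HT-29 and 0.0522 in MCF10A for TRIM genes, against 0.0701, 0.0710 and 0.0597 for all tested genes.

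Among the genes that work with TRIM ligases, 12 ubiquitin-conjugating enzymes were tested. Of these, 2 were higher and 1 lower in the pair labelled MDA-MB-436 than in MCF10A, and the same counts were found for the pair labelled HT-29. Over all tested genes 25.6% were higher and 23.7% lower in the first of these comparisons, and 28.4 and 18.1% in the second, which also holds for the lists that follow. UBE2L6, the enzyme that passes on the ubiquitin-like protein ISG15 and partner of TRIM25 in that pathway, had the largest change, at 17569 and 18563 in the pair labelled MDA-MB-436, 5213 and 4935 in the pair labelled HT-29 and 67.4 and 87.4 in MCF10A (log2 fold change 7.86, adjusted p = 6.25e-10). UBE2N, which makes the chains used in antiviral signalling, stood at 4016 and 3859 in the pair labelled MDA-MB-436, 2774 and 2787 in the pair labelled HT-29 and 5646 and 5633 in MCF10A, and was called lower in the pair labelled HT-29 than in MCF10A (log2 fold change -1.02, adjusted p = 2.27e-08). Of 13 interferon signal genes 9 were higher and 0 lower in the pair labelled MDA-MB-436 than in MCF10A, and 7 were higher and 1 lower in the pair labelled HT-29. Of 8 RNA-sensing partners 3 were higher and 0 lower in the pair labelled MDA-MB-436 than in MCF10A, and 4 were higher and 1, IRF3, lower in the pair labelled HT-29 (log2 fold change -1.35, adjusted p = 6.44e-09). The sensor gene DDX58, which encodes RIG-I, the target of TRIM25, stood at 8893 and 8911 in the pair labelled MDA-MB-436, 4316 and 4422 in the pair labelled HT-29 and 281 and 229 in MCF10A (log2 fold change 5.13, adjusted p = 8.50e-10). DDX58 was higher than in MCF10A in both pairs, at a log2 fold change of 4.10 in the pair labelled HT-29, where TRIM25 was at -0.39.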

How the data were processed

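RNA of 3 human cell lines was measured by paired-end sequencing, 2 libraries per line. Per the submitters' processing notes FastQC, STAR 2.2.0, HTSeq and the build hg19 are named, with no role or settings. Annotation and strandedness: not given in the sources used here. The authors' deposited tables hold a normalised read count, a signal scaled by 1 factor per library, and an RPKM value in 23368 rows. Within a tolerance of 0.001, 100% of values above 0 were whole multiples of 1 step, so whole reads were recovered. The deposited RPKM of all 71 TRIM rows was out of register with the symbols; in case-insensitive order 0 rows disagreed on zeros, and RPKM was used only so reordered, to order levels between genes.

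Symbols read as dates (28) or repeated were left out. limma 3.58.1 in R 4.3.3, with a trended and robust prior, was fitted to log2(normalised count + 1) of the 6 libraries, with 3 residual degrees of freedom, for genes of at least 10 in 2 libraries. edgeR 4.0.16 and DESeq2 1.42.0 on recovered reads, other pseudocounts (0.5 and 5), filters, scalings and samples were alternatives. The median chi-square of paired libraries over genes was 0.687 for the pair labelled MDA-MB-436, 0.729 for that labelled HT-29 and 0.553 for MCF10A, where sampling alone gives 0.455, so libraries were kept as 2 samples. The fit was tested on simulated counts. Values of every library and fold changes are given for TRIM31, TRIM29, TRIM22, the interferon list and, per comparison and direction, the 6 called members with the largest change, a mean of at least 100 in the higher line and no overlap; other members are named by role, some chosen after their values were seen. Members and lists were chosen with earlier results of these data known. Of the 71 symbols 68 were current in RefSeq and 2 older. Exon overlaps are from GENCODE 29, which may differ from the authors' annotation. Exons of 28 members overlap another gene there, and only some overlaps are given above. Others include TRIM47 (51.5% of exon bases, with an antisense transcript) and TRIM22 (10.7%, with OR56B1 on the same strand).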

Additional observations from a re-analysis of the deposited data

How the results depend on the processing

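Of 129 counts of TRIM genes under alternative settings 128 stayed within 1.5 times the reported count. The exception was 6 in place of 11 genes higher in the libraries labelled HT-29 than in MCF10A when limma tested against a fold of 2. The 129 include the comparison of deeper and 25M libraries, where every count was 0 and was taken as unchanged. Leaving out each library in turn gave 19 to 20 higher and 7 to 9 lower for the pair labelled MDA-MB-436 against MCF10A, 9 to 11 and 9 to 11 for the pair labelled HT-29 against MCF10A, and 11 to 11 and 21 to 22 for the pair labelled HT-29 against the pair labelled MDA-MB-436. Between deeper and 25M libraries the count stayed 0 to 0. Where this leaves a line with 1 library, that library is taken to vary like the others. With a replicate block on the depth label the counts were 19 and 7, 11 and 9, and 11 and 22, as without it. Deviations of same-depth libraries correlated across genes at 0.04, -0.04 and 0.11, so the depth label was not taken to pair them. Of 1118 fold changes recomputed, 13 lost and 6 gained a call and 3 changed sign, all 3 uncalled and for the libraries labelled HT-29 against MCF10A: TRIM14 (0.0219 with library size scaling), TRIM21 (-0.0493 with TMM) and TRIM38 (-0.0807 with TMM); the cause was not tested. Counting the MCF10A libraries as 1 sample, chosen after seeing the data, gave 19 and 7, 10 and 9, and 11 and 22. With library size scaling the all-gene median log2 fold change was 0.43 for HT-29 against MCF10A and 0.42 against MDA-MB-436. Genes with few reads, such as TRIM54, TRIM69 and TRIM78P, are limited by depth.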

Other observations

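Relatives of the family that carry other names were not members, and their levels are given here as values. PML, the organiser of nuclear bodies and a TRIM protein by structure, stood at 7234 and 7374 in the pair labelled MDA-MB-436, 3074 and 2851 in the pair labelled HT-29 and 2796 and 2589 in MCF10A (log2 fold change 1.44, adjusted p = 3.72e-08). MID1 and MID2, microtubule-bound ligases of the same class as TRIM36, were both lower in the pair labelled MDA-MB-436 than in MCF10A: MID1 stood at 163 and 152 in the pair labelled MDA-MB-436, 279 and 259 in the pair labelled HT-29 and 708 and 804 in MCF10A, and MID2 at 96.8 and 75.1 in the pair labelled MDA-MB-436, 506 and 494 in the pair labelled HT-29 and 566 and 579.8 in MCF10A, with MID2 not called between the pair labelled HT-29 and MCF10A. MEFV, the pyrin gene, stood at 6.18 and 4.93 in the pair labelled MDA-MB-436, 3.00 and 6.57 in the pair labelled HT-29 and 67.4 and 54.0 in MCF10A. The TRIM-like genes TRIML1 and TRIML2 had no read in the pair labelled MDA-MB-436. TRIML2 stood at 515 and 506 in the pair labelled HT-29 and 169 and 167 in MCF10A, and TRIML1 at 54.0 and 46.5 in the pair labelled HT-29 and at 0 in MCF10A. Of these 6 genes 1 was higher and 4 were lower in the pair labelled MDA-MB-436 than in MCF10A, and 2 were higher and 2 lower in the pair labelled HT-29. Over all tested genes 25.6% were higher and 23.7% lower in the first of these comparisons, and 28.4 and 18.1% in the second.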
